A study of Mus musculus with 28 samples.

Results

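Short interspersed elements (SINEs) were examined in mouse primordial germ cells with and without the H3K9 methyltransferase gene Setdb1. The members are the rows of the deposited repeat table whose class is SINE. They number 37 of 539 repeat families, beside 116 LINE and 385 LTR retrotransposon families, and together they list 1520985 genomic elements. The table puts 17 families in the Alu superfamily, which in mouse holds the B1 elements, 5 in B2, 4 in B4, 4 in ID and 5 in MIR. The other two, AmnSINE1 and LFSINE_Vert, carry only the name SINE and are called unplaced here.

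SINEs are short, non-coding retrotransposons. RNA polymerase III transcribes them from a promoter inside the element, and they move with the enzymes of LINE-1 elements. B1 elements descend from the 7SL RNA of the signal recognition particle, B2 and ID elements from transfer RNAs, and B4 elements join ID-like and B1-like parts. MIR, AmnSINE1 and LFSINE_Vert are old families shared far beyond rodents. Setdb1 places the repressive histone mark H3K9me3 and is best known for silencing endogenous retroviruses such as the intracisternal A particles (IAPs).

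The cells came from the gonads of E13.5 male and female mice and were sorted for the surface antigen SSEA1. Per the labels, the knockout (KO) carried Setdb1 delta/-, Het1 delta/+, Het2 flox/- and the wild type (WT) flox/+, so every group of the cross held at least 1 altered Setdb1 allele. RNA of each sex was read in 2 Het1, 2 Het2 and 2 KO libraries and 1 WT library. Het1 and Het2 were pooled as Het, with 4 libraries against 2 KO libraries in each sex. H3K9me3 and H3K27me3, a mark of Polycomb repression, were each read in 1 Het2 and 1 KO library per sex, and total histone H3 in 1 male C57BL/6 library. Marker genes were also read in 1 RNA library of male C57BL/6 gonadal soma. What drove the deletion, and whether replicates were separate embryos or pools, is not given in the sources used here, so p-values measure the spread between libraries only.

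All levels are RPKM (reads per kilobase of sequence, scaled to the library), pooled by the authors over every copy of a family. A family value therefore does not tell transcripts that start in a SINE from longer RNAs that contain one. Read depth behind the values is unknown, since the tables hold no counts.

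ID elements are known to descend from Bc1, a neuronal RNA gene transcribed by RNA polymerase III, and its start shows the promoter inside the element that this class of repeat shares. The first 50 bases of Bc1 in the RefSeq promoter table (GRCm38.p6, chr7:144914470-144914519, plus strand) are printed with the match to the A box, the conserved front element of such an inner promoter, in capitals from base 14.
Bc1: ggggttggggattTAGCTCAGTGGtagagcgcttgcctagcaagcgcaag
The A box consensus, searched on both strands, was found in 2324 of 32851 promoter windows of 300 bases (7.07%), and a match is a description only. Bc1 itself is named here for its sequence only.

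SINE families were among the repeats with the most RNA per kilobase. Over the 12 Het and KO libraries, the median family level was 0.618 RPKM among SINEs (0.353 to 1.55), against 0.259 among LINE families and 0.182 among LTR families. Of the 10 families with the highest median RNA, 7 were SINEs, and of the top 100, 36 were SINEs. The highest SINE levels were those of AluF_3 at 1.55 RPKM, PB1D9 at 1.09 and AluG_3 at 0.935. PB1D9 belongs to the proto-B1 elements, an early branch of the B1 line, and lists 29287 copies, while AluF_3 and AluG_3 list only 166 and 282. B4 at 0.353, MIR at 0.362 and MIRb at 0.379 were lowest.

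The superfamilies were ordered by median family RNA as ID (0.765 RPKM), Alu (0.749), unplaced (0.627), B2 (0.524), B4 (0.492) and MIR (0.418). The 4 ID families lay close together, between 0.658 and 0.776 RPKM, above every B2, B4 and MIR family. The 5 MIR families, between 0.362 and 0.467 RPKM, also lay below every B2 family, though only just, since the lowest of those was at 0.470. All other pairs of superfamilies overlapped in range. The spread of 1 family between libraries was wider than these steps: B3, for example, ran from 0.44 to 0.87 RPKM. Mappability is a value from 0 to 1 that the deposited table gives for each family. How it was made, and whether a high value means easier mapping, is not stated. Within Alu, the B1 families with the highest mappability had the lowest RNA. B1_Mm had 0.407 RPKM, B1_Mus1 0.441 and B1_Mus2 0.480, while the proto-B1 families PB1, PB1D7, PB1D9 and PB1D10 had 0.772 to 1.09. Across the 37 families the Spearman correlation of mappability with median RNA was 0.09, a description over families that share the same libraries.

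The SINE families varied together from library to library. The median SINE level was 0.450 and 0.490 RPKM in the male Het1 and Het2 libraries numbered 1, and 0.694 and 0.656 in those numbered 2. In females it was 0.480 and 0.490 in the Het libraries numbered 1, and 0.880 and 0.730 in those numbered 2. In each sex, 36 of 37 SINE families had both Het libraries numbered 2 above both numbered 1, where 82.0% of the 528 families tested in males and 90.5% in females did so. The median gap was 0.43 (log2) in males and 0.66 in females. The labels do not say what the numbers stand for. In males, the libraries numbered 2 and the WT library were deposited with 3 decimals and the others with 2. The WT library had a median of 0.618 RPKM in males, between the Het libraries numbered 1 and 2, and of 0.750 in females, among those numbered 2.

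**Figure D1:**
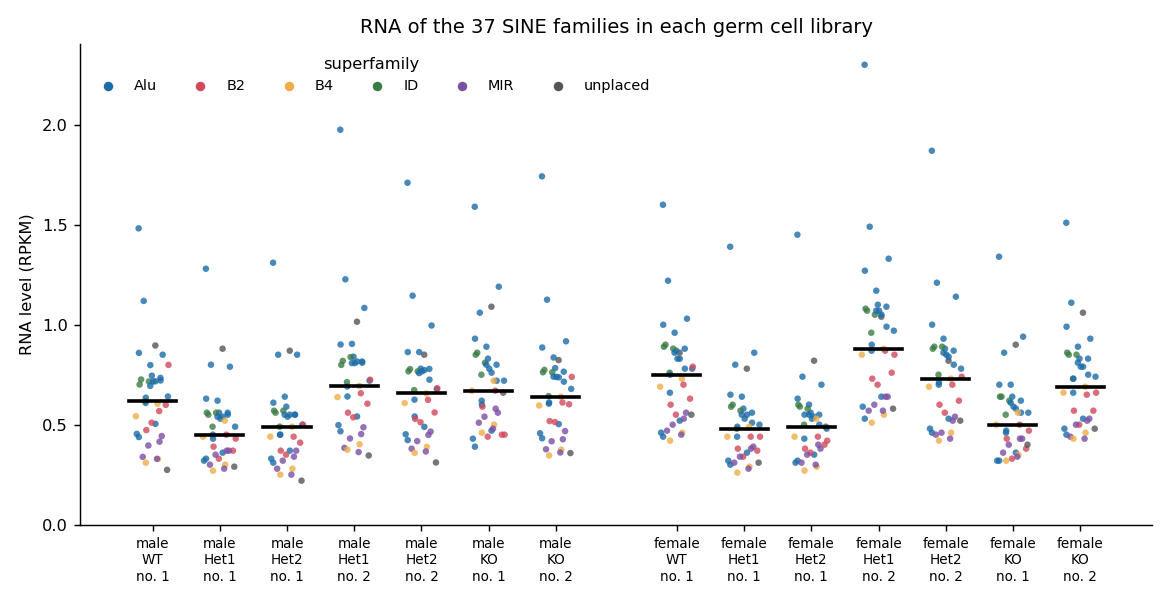
RNA level in RPKM (vertical axis) of the 37 SINE families in each of 14 germ cell libraries; each point is a family coloured by superfamily and the black bar is the median over families. The Het libraries numbered 1 have medians of 0.450 to 0.490 RPKM, below the medians of 0.656 to 0.880 in the Het libraries numbered 2.

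In male germ cells, no SINE family passed the test for a difference between KO and Het. The test was limma on log2(RPKM + 0.1) with Benjamini-Hochberg adjustment over all 528 families that reached 0.1 RPKM in 2 or more of the 12 libraries, a filter that all 37 SINE families met. It called 0 of 37 SINE families, against 2.46% of all families. The median SINE difference was 0.20 (log2, KO minus Het; 0.01 to 0.60) and lay below the all-family median of 0.29. Leaving out 1 male library moved the median between 0.13 (without Het1 replicate 1 or Het2 replicate 1) and 0.29 (without Het1 replicate 2). All 37 differences were above 0 as deposited, like 521 of all 528, but with each library centred on its family median 34 of them were below 0, with a median of -0.10. Fewer cells of a type and less RNA per cell cannot be told apart in such bulk libraries.

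The family with most copies of each superfamily shows how the libraries lay. B1_Mus1 had 0.32, 0.498, 0.33 and 0.452 RPKM in male Het libraries (Het1 then Het2, each numbered 1 then 2), and 0.43 and 0.457 in KO. B3, a B2-type family and the most numerous SINE family with 147277 copies, had 0.45, 0.657, 0.44 and 0.624 RPKM in Het, and 0.67 and 0.611 in KO. RSINE1, of the B4 superfamily, had 0.44, 0.638, 0.44 and 0.608 RPKM in Het, and 0.67 and 0.596 in KO. In each of these families at least 1 KO library lay inside the range of the Het libraries. The ID4_ family had 0.55, 0.819, 0.56 and 0.778 RPKM in Het, and 0.86 and 0.774 in KO. MIR had 0.28, 0.363, 0.25 and 0.366 RPKM in Het, and 0.48 and 0.361 in KO. For B3, RSINE1, ID4_ and MIR the KO library numbered 1 was above every Het library and the one numbered 2 was not.

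AmnSINE1, an old family of 518 copies, differed most in males. It had 0.29, 0.346, 0.22 and 0.311 RPKM in Het, and 0.66 and 0.358 in KO. It was the only SINE family whose 2 male KO values both exceeded all 4 Het values, an arrangement that 34.5% of all families showed. Its difference was 0.60 (log2, SE 0.30; limma adjusted p = 0.495), so it did not pass, and it was the 1 SINE family with an unadjusted p under 0.05. Without KO replicate 1 its difference was 0.24, and without KO replicate 2 it was 0.97. With library number as a block the difference stayed at 0.60 (SE 0.21; limma adjusted p = 0.0913). With each library centred on its family median it was 0.29 (SE 0.16; limma adjusted p = 0.912). As deposited, MIR and MIRb came next, at 0.33 (SE 0.29) and 0.32 (SE 0.29), both with an adjusted p of 0.520 in limma.

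In female germ cells, SINE RNA as deposited lay almost level between KO and Het. Of the 37 families, 0 passed the same limma test, against 1.89% of all families. The median difference was -0.04 (log2; -0.26 to 0.17), where the all-family median was 0.05, and 31 families were below 0. This near-zero median depended on single libraries. It was above 0 without Het1 replicate 2 (0.12), Het2 replicate 2 (0.03) or KO replicate 1 (0.14), and further below 0 without Het1 replicate 1 (-0.15), Het2 replicate 1 (-0.15) or KO replicate 2 (-0.22). With each library centred on its family median, the female SINE median was -0.13. Then 0 families were called in limma, and 4 had an unadjusted p under 0.05. No SINE family had both female KO libraries above, or both below, all Het libraries, and 9.47% of all families had both above.

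B1_Mus1 had 0.32, 0.59, 0.31 and 0.48 RPKM in female Het libraries, and 0.32 and 0.48 in KO. B3 had 0.44, 0.87, 0.44 and 0.70 RPKM in Het, and 0.50 and 0.65 in KO. For both families each KO library lay within the Het range. AmnSINE1 had 0.31, 0.58, 0.49 and 0.52 RPKM in Het, and 0.40 and 0.48 in KO, with a difference of -0.07 (log2, SE 0.30). The lowest difference was that of AluF_3, with 1.39, 2.30, 1.45 and 1.87 RPKM in Het, and 1.34 and 1.51 in KO, at -0.26 (log2, SE 0.31; limma adjusted p = 0.999). The highest was that of LFSINE_Vert, at 0.17 (SE 0.30), whose Het libraries had 0.78, 1.04, 0.82 and 0.82 RPKM and its KO libraries 0.90 and 1.06.

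Averaged over the sexes, SINE RNA again showed no called difference. Of 37 families 0 passed in limma, and 0 had an unadjusted p under 0.05, where 6.82% of all families passed, each of them higher in KO. The SINE median was 0.08 (log2; -0.08 for AluF_3 to 0.27 for AmnSINE1), against an all-family median of 0.17, and 33 families were above 0, where 511 of all 528 were. Leaving out 1 library moved the SINE median between 0.00 (without female KO replicate 2) and 0.17 (without female KO replicate 1). By superfamily the medians were 0.05 for Alu, -0.01 for B2, 0.10 for ID, 0.14 for B4, 0.16 for MIR and 0.19 for the unplaced pair. The 3 B2 families named B2_Mm1a, B2_Mm1t and B2_Mm2, together with AluF_3, were the 4 below 0. The 95% confidence intervals of the 37 families ran from -0.52 at their lowest end to 0.69 at their highest, as deposited and averaged over the sexes. In males alone the interval of AmnSINE1 reached 1.20.

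Scaling decided the sign of this median. With each library centred on its family median, the SINE median over both sexes was -0.12 with 0 families called, and 16 had an unadjusted p under 0.05. With quantile normalization it was -0.14, and 5 families passed as lower in KO: AluF_3, AluG_3, PB1, PB1D7 and PB1D9. AluF_3 was then at -0.96 (SE 0.15; limma adjusted p = 0.00390) over both sexes and at -1.12 (SE 0.21; limma adjusted p = 0.0191) in females. PB1D9 was at 0.04 (SE 0.23) as deposited and at -0.60 (SE 0.11; limma adjusted p = 0.0114) after quantile normalization. No SINE family was called higher in KO under any scaling run.

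**Figure D2:**
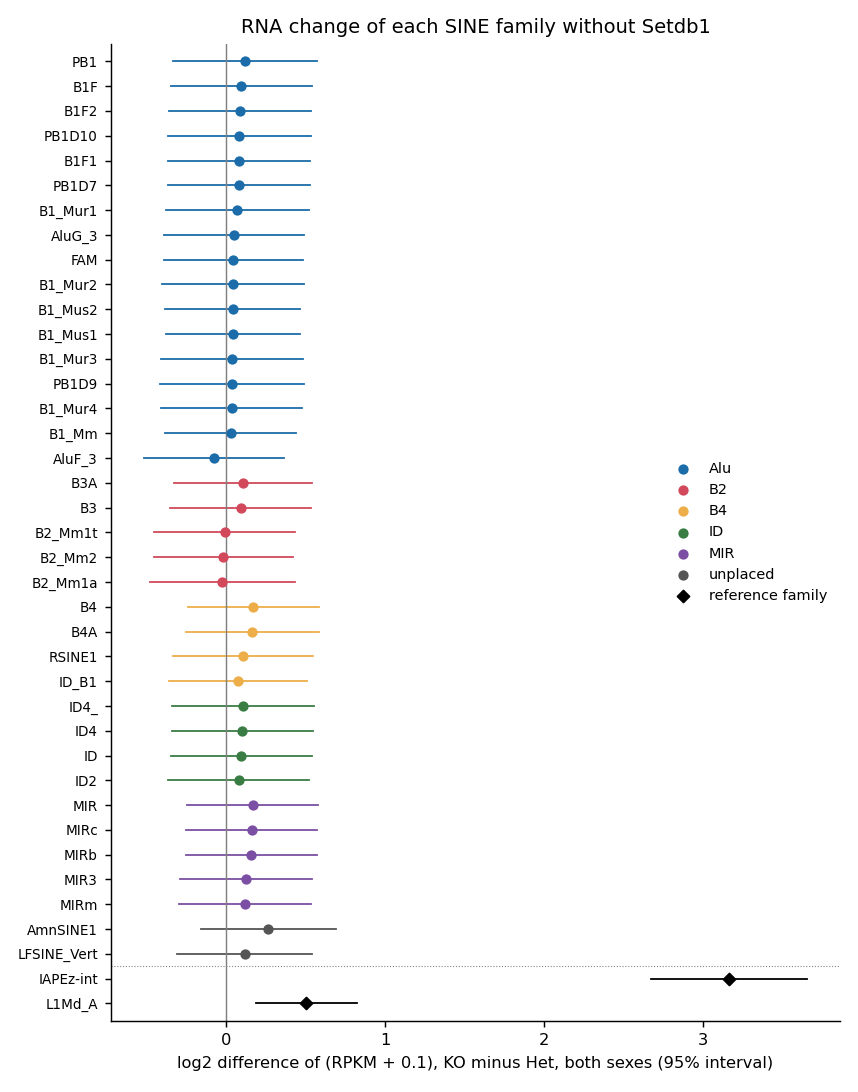
Difference in RNA between KO and Het over both sexes, in log2 of (RPKM + 0.1), for the 37 SINE families and 2 reference families; points are limma estimates and lines their 95% confidence intervals. All 37 SINE intervals contain 0 and stay between -0.52 and 0.69, while IAPEz-int stands at 3.17.

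Compared within a library number, the SINE values separated. Among libraries numbered 1, the male KO library was above the mean of the 2 Het libraries in 36 of 37 families (median 0.46 log2, all families 0.55), and the female KO library in 33 of 37 (median 0.13, all families 0.17). Among libraries numbered 2, the male KO library was below in 32 of 37 families (median -0.05, all families 0.01) and the female KO library in 36 of 37 (median -0.19, all families -0.08). In each of these 4 comparisons the SINE median lay below that of all families. AmnSINE1 had the widest spread, from 1.11 in males numbered 1 to -0.16 in females numbered 2. With 1 KO library in each comparison there is no test of these values.

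**Figure D3:**
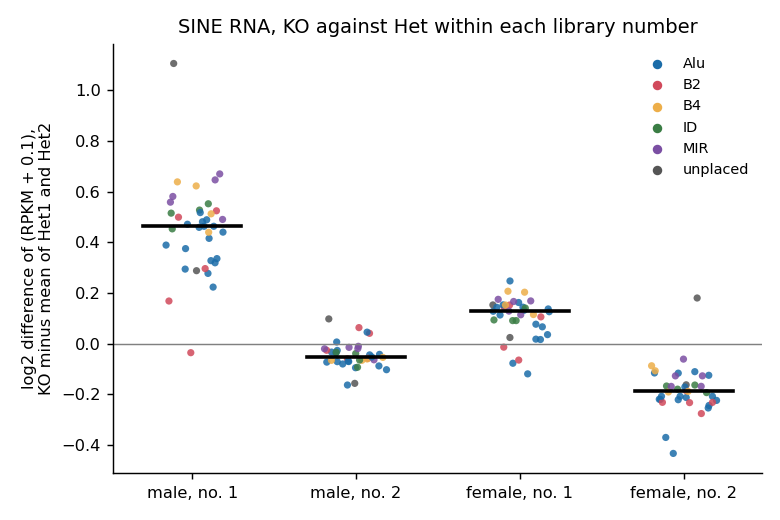
Difference between the KO library and the mean of Het1 and Het2 of the same number, in log2 of (RPKM + 0.1), for each of the 37 SINE families (points, coloured by superfamily); black bars are medians. The medians are 0.46 and -0.05 in males and 0.13 and -0.19 in females, for libraries numbered 1 and 2.

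An IAP family and a young LINE-1 family of the same table, chosen with their results known, show the scale of change in other repeats. IAPEz-int, the internal part of IAP retroviruses, had 0.14 to 0.49 RPKM in the 8 Het libraries and 2.23 to 6.17 in the 4 KO libraries, a difference of 3.17 (log2, SE 0.24; limma adjusted p = 3.16e-13). Its change exceeded that of B1_Mm by 3.56 (log2; 3.06 in males and 4.07 in females), with an exact permutation p of 0.00444, two-sided, the smallest that the 225 arrangements of genotype within sex can give. L1Md_A, an active LINE-1 family, rose by 0.50 (SE 0.16; limma adjusted p = 0.0441), a call that was lost in 10 of the 12 fits that left out 1 library (0.41 to 0.59, limma adjusted p 0.0562 to 0.307) and with median centring (0.30, limma adjusted p = 0.347). Its change exceeded that of B1_Mm by 0.93 (log2, exact permutation p = 0.00889). L1Md_A lay near the filter of 0.1 RPKM, at 0.06 to 0.13 RPKM in Het and 0.12 to 0.182 in KO libraries. The groups overlapped, since its log2 ratio to B1_Mm was -1.585 in male Het1 replicate 1 and -1.700 in male KO replicate 1.

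The SINE superfamilies did not separate from each other in this way. Of the 15 ratios between the 6 families with most copies in their own superfamily, 0 passed an exact permutation test after Benjamini-Hochberg adjustment. With 225 arrangements, 1 ratio alone at the smallest possible p, 0.00444, could not pass adjustment over 15 ratios. The test therefore cannot show that superfamilies changed alike. The smallest exact p was 0.0756 (adjusted p = 0.389), for B3 against MIR, whose ratio was lower in KO, at -0.11 (log2). The differences of all 15 ratios lay between -0.28 and 0.00.

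Sex and the control genotype were tested in the same way. Between female and male Het cells, 0 of 37 SINE families and 0.0% of all families passed in limma. The SINE median was 0.13 (log2, female minus male; all families 0.18), and 36 families were higher in females, but the median was -0.05 with each library centred on its family median and -0.03 without female Het1 replicate 2. AmnSINE1 again lay at the end, at 0.54 (SE 0.24; limma adjusted p = 0.770), and LFSINE_Vert at -0.06 (SE 0.24) was the exception below 0. The KO effect did not pass as different between the sexes in any SINE family either (0 of 37, and 0.0% of all families). Its median was -0.24 (log2, female minus male effect; all families -0.22), but -0.02 with median centring and 0.02 with quantile normalization, and between -0.42 (without female KO replicate 2) and -0.07 (without female KO replicate 1) when 1 library was left out. AmnSINE1 was at -0.67 (SE 0.42; limma adjusted p = 0.898), and at -0.31 without male KO replicate 1. Het1 and Het2 differed by a median of 0.09 (log2; all families 0.08) with 0 of 37 families and 0.0% of all families passing, and the intervals ran from -0.57 to 0.73.

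The libraries were checked against their labels. Setdb1 RNA was lower in both KO libraries than in all 4 Het libraries of each sex, at 27.1 and 31.2 RPKM against 37.5 to 52.1 in males and 31.3 and 34.7 against 38.2 to 58.9 in females, although the difference of -0.54 (log2, SE 0.13) had a limma adjusted p of 0.0783. The 7 germ cell markers measured, among them Ddx4 and Dazl, were present in every library, with a summed level of 1817 to 2197 RPKM in male Het, 1923 to 2151 in male KO, 1331 to 1756 in female Het and 916 to 1259 in female KO cells, against 13.8 in the SSEA1-negative soma of 1 male C57BL/6 library, another strain background and the 1 soma library used for both sexes. The 5 Leydig cell markers summed to 26.9 to 56.1 RPKM in male KO, with all 5 at 1 RPKM or more, and to 674 in soma. In male Het they summed to 3.42 to 5.32 RPKM, and Cyp11a1 was at 0 in 2 libraries and Cyp17a1 in 1. The male WT library, with Setdb1 flox/+, summed to 19.8 RPKM, also with all 5 at 1 RPKM or more. In female KO the 5 stromal markers summed to 34.3 to 46.6 RPKM against 13.4 to 31.3 in female Het and 1199 in soma, with none at 0 in any library. The 5 Sertoli markers summed to 43.5 to 51.1 RPKM against 16.3 to 32.8, with Amh and Dhh at 0 in some female libraries. The female WT library summed to 39.4 RPKM, above the Het range. A single gene held most of each sum, at 42.5 of 51.1 and 36.4 of 43.5 RPKM in KO and 33.2 of 39.4 in WT. Other lists overlapped between KO and Het. The 4 pregranulosa markers summed to 10.9 to 15.8 RPKM in female KO and 6.17 to 13.9 in female Het. Stromal and Sertoli sums overlapped in males, and endothelial and macrophage sums in each sex. The 2 globin genes were at 0 in most libraries and summed to 254 RPKM in female Het2 replicate 1. The part of these differences in the SINE values was not tested.

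H3K9me3 over SINEs was low and did not meet the size rule for a change. Each sex has 1 Het and 1 KO library, so there is no test. The rule was a 2-fold difference in the same direction in both sexes at 0.5 RPKM or more. No SINE family reached that level in both sexes, and of the 102 families that did, 0.0% met the rule in either direction. At a level of 0.1 RPKM, which all SINE families reached, 0.0% of 518 families met it too. IAPEz-int, with the same scaling, had 1.59 RPKM in male Het and 1.39 in male KO, and 1.40 and 1.18 in the female pair.

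In males, the H3K9me3 value of every SINE family was higher in KO than in Het, with a median of 0.19 against 0.16 RPKM. The median ratio was 0.20 (log2 of RPKM + 0.1; 0.11 to 0.41), compared with 0.14 over all families, of which 390 of 539 were higher in KO. In females the medians were 0.22 and 0.21 RPKM, with 13 families higher in KO, 5 lower and 19 equal at the 0.01 RPKM to which the values are rounded. The female median ratio was 0.00, against 0.05 over all families. Of the 37 families that were higher in male KO, 13 were therefore higher in female KO too, and the difference between the sexes has no replicate check.

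B1_Mm, B1_Mus1 and B1_Mus2 carried the most H3K9me3 among SINE families, while by superfamily the median was higher in B2, at 0.20 RPKM in male Het and 0.27 in female Het, than in Alu, at 0.16 and 0.22. B1_Mm had 0.34 RPKM in male Het and 0.47 in male KO, and 0.43 in both female libraries. B1_Mus1 had 0.29 RPKM in male Het and 0.40 in male KO, and 0.38 and 0.37 in the female pair. B1_Mus2 had 0.27 and 0.39 in males and 0.36 in both female libraries. B1_Mus2, AmnSINE1 (male Het 0.12 and KO 0.17, female Het 0.17 and KO 0.19) and B1_Mm had the 3 highest mean KO to Het ratios. At the other end, AluF_3 and AluG_3 were higher in male KO but lower in female KO, where AluF_3 had 0.24 RPKM in Het and 0.20 in KO and AluG_3 had 0.20 and 0.17. FAM had 0.16 and 0.18 RPKM in males and 0.20 in both female libraries.

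**Figure D4:**
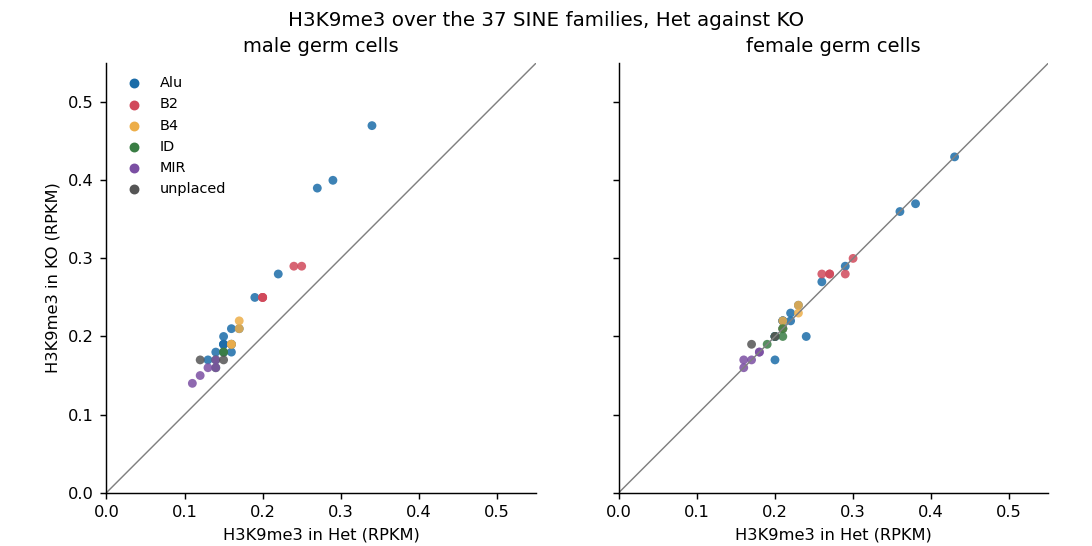
H3K9me3 in RPKM in Het (horizontal axis) and KO (vertical axis) for each of the 37 SINE families in males and females, 1 library each; the line marks equal values. All 37 male points lie above the line, led by B1_Mm at 0.34 and 0.47, while female points lie on or near it.

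The families with more H3K9me3 were mostly those with the highest deposited mappability. Of the 37, 6 families, namely B1_Mm, B1_Mus1, B1_Mus2, B2_Mm1a, B2_Mm1t and B2_Mm2, had a mappability of 0.43 to 0.72, and the other 31 had 0 to 0.15. In male Het cells H3K9me3 was 0.20 to 0.34 RPKM in the 6 and 0.11 to 0.22 in the 31, and in female Het cells 0.26 to 0.43 and 0.16 to 0.29. Across the 37 families, the Spearman correlation of mappability with H3K9me3 was 0.80 in male and 0.82 in female Het, and over all 539 families 0.83 and 0.81. In the same column IAPEz-int stood at 0.99, L1Md_A at 0.97 and the 5 MIR families at 0.01. Which way the value runs is not stated, so a high value need not mean that reads map more easily. The points share their libraries, and the part of mappability in these levels was not tested.

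**Figure D5:**
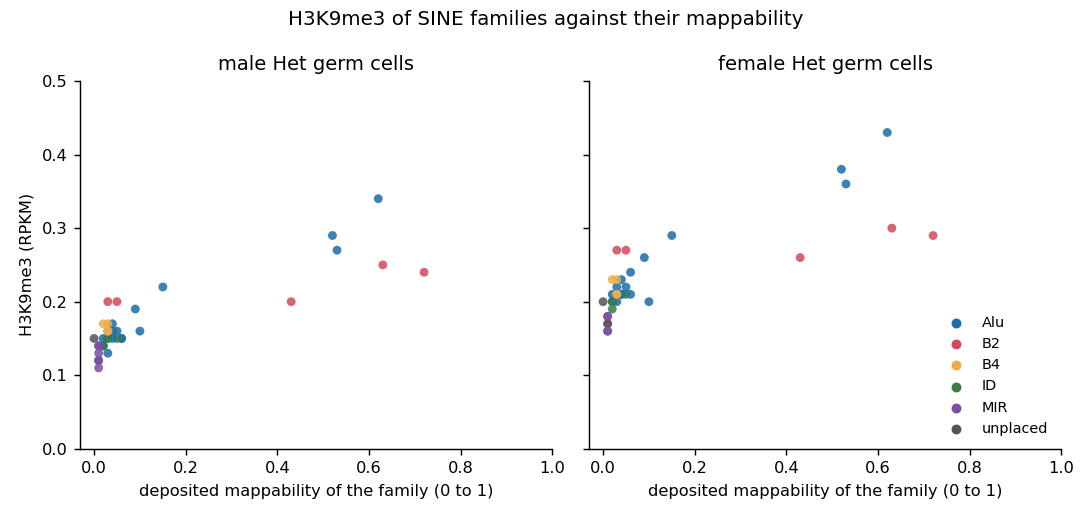
Deposited mappability (horizontal axis, 0 to 1) against H3K9me3 in RPKM (vertical axis) in male and female Het cells, 1 point for each SINE family. The 6 families at 0.43 or more lie at 0.20 to 0.34 RPKM in the male library and 0.26 to 0.43 in the female one, at or above most of the 31 others.

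Set against total histone H3, most SINE families had less H3K9me3 than H3 signal. The H3 library came from another genotype, C57BL/6 wild type, and its SINE values were even, at 0.22 to 0.28 RPKM. The ratio of male Het H3K9me3 to H3 had a median of 0.60 (0.48 to 1.36) over SINE families, 0.56 over LINE and 0.96 over LTR families. It was above 1 in 4 of 37 SINE families, at 1.36 in B1_Mm, 1.12 in B1_Mus1, 1.04 in B2_Mm1a and 1.04 in B1_Mus2, against 30 of 116 LINE and 178 of 385 LTR families. The same ratio for H3K27me3 had a SINE median of 1.11 and was above 1 in 33 of 37 families. Its median was 1.00 over LINE families, with 50 of 116 above 1, and 1.30 over LTR families, with 343 of 385 above 1.

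H3K27me3 over SINEs was nearly the same in KO and Het. Under the same rule 0.0% of the 66 families at 0.5 RPKM were called, none of them a SINE family. In males the SINE medians were 0.29 RPKM in Het and 0.27 in KO, with 33 families lower in KO and 4 equal, where 361 of all 539 were lower, and the median ratio was -0.04 (log2) for SINE families and for all families, to 2 decimals. In females both medians were 0.31 RPKM, with 10 families higher, 14 lower and 13 equal, and a median ratio of 0.00. Over all families the female median ratio was 0.06, with 367 of 539 higher in KO. B1_Mm was highest, at 0.40 RPKM in male Het and 0.39 in male KO, and 0.43 and 0.40 in females. FAM had the lowest mean ratio, with 0.29 RPKM in male Het and 0.26 in male KO, and 0.33 and 0.29 in the female pair. AluF_3 came next, with 0.28 and 0.25 in males and 0.29 and 0.26 in females. B2_Mm2 had the highest, with 0.29 RPKM in both male libraries and 0.31 and 0.33 in females.

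Female libraries gave higher SINE values than male ones for both marks. H3K9me3 was higher in female than in male Het cells in 37 of 37 families, with a median of 0.30 (log2; all families 0.23), and in 32 of 37 in KO, with a median of 0.10 (all families 0.16). H3K27me3 was higher in females in 31 of 37 families in Het (median 0.07, all families 0.07) and in 36 of 37 in KO (median 0.12, all families 0.18). No SINE family reached 2-fold in both genotypes for either mark, against 0.186% of all families for each mark.

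Genes that transcribe SINEs or bind their RNA did not pass a test between KO and Het. Of the 38 listed, which include the subunits of RNA polymerase III, its initiation factors TFIIIC and TFIIIB and the SINE RNA binders Srp9, Srp14 and Ssb, 36 were tested with limma on log2(RPKM + 1). None passed in males (0.614% of 13518 genes did), in females (0.407%) or over both sexes (1.04%). An unadjusted p under 0.05 was reached by 0 genes in males and by 1 in females, Polr3b at -0.33 (log2). Over both sexes it was reached by 1 other gene, Gtf3c4 at 0.28. The median over both sexes was -0.06 (log2; -0.25 for Polr3g to 0.28), where that of all genes was 0.05. Srp9, which with Srp14 binds B1 RNA, was at -0.13 (SE 0.09), and Maf1, a repressor of RNA polymerase III, at 0.10 (SE 0.23). Of 17 tested genes of H3K9 methylation and repeat silencing, 0 passed in each of the 3 contrasts, with Setdb1 the lowest at -0.54 over both sexes.

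Between female and male Het cells, more of these genes differed, in a contrast where 31.9% of all genes passed. Of the 36 genes tied to RNA polymerase III and SINE RNA, 2 were higher in females and 7 lower, where 17.6% and 14.3% of all genes were. Higher were Adarb1, an RNA editing enzyme, at 1.41 (log2, SE 0.25; limma adjusted p = 0.00124) and Srp14 at 0.62 (SE 0.12; limma adjusted p = 0.00275). Lower were Polr1c, a subunit shared by RNA polymerases I and III, at -1.11, Gtf3c6 at -0.77, Brf2 at -0.61, Polr3d at -0.58, Polr3b at -0.49, Gtf3c2 at -0.46 and Gtf3c3 at -0.34. Of the 17 silencing genes, Suv39h1, another H3K9 methyltransferase, was higher in females at 0.67, and Trim28, which recruits Setdb1, and Cbx3, which binds H3K9me3, were lower at -0.67 and -0.59. SINE RNA itself passed the test between the sexes in 0 of 37 families.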

How the data were processed

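The analysis used 12 RNA libraries of the cross, 2 WT RNA libraries, 1 C57BL/6 soma RNA library (marker genes only) and 9 ChIP libraries of the 28 samples. The submitters' processing notes name BWA, SAMtools and the mm9 build; versions, the read counter and how multiply mapped reads were treated were not given in the sources used here. RPKM values per repeat family and per gene are the authors', per the file headers. The deposited repeat table also gives a mappability fraction and a plain number of elements, made by the authors in ways that are not stated. Values were not rescaled. RNA was tested in R 4.3.3 with limma 3.58.1 (4 group means, eBayes with trend, 2-sided, threshold 0.05 after Benjamini-Hochberg adjustment), on families at 0.1 RPKM and genes at 1 RPKM in at least 2 libraries. Exact permutations were enumerated in Python 3.11.15 with NumPy 2.4.6. On simulated data with known changes of 1 and 2 (log2), the family test of KO minus Het over both sexes recovered 100% of them. It called 0% of unchanged families. Smaller changes and the other contrasts were not simulated. The simulated noise was independent between families, whereas the SINE families varied together from library to library. These rates need not hold for the data. SINE members follow the table's class; lists, reference families and filters were chosen with earlier results of these data known. Named families are the most numerous of each superfamily, the 3 highest and lowest by RNA, those with the smallest p in each contrast, and the extremes of each mark. Alternatives covered pseudocounts, filters, scaling, controls, left-out libraries and a replicate block. Promoter ChIP values, C57BL/6 RNA and soma libraries over repeats, and DNA methylation were not used here. In the RNA polymerase III list 36 of 38 genes were tested, and in the silencing list Atf7ip, with 2 rows, was not tested.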

Additional observations from a re-analysis of the deposited data

Results flagged for a closer look

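LFSINE_Vert RNA in female Het cells had 1 library far from the others. Het1 replicate 2 had 1.04 RPKM, and the other three Het libraries had 0.78 to 0.82. This was the only one of 38 groups of 4 Het libraries (the named families in each sex) in which the gap to the next library exceeded the 95% critical value of Dixon's test, where chance alone gives about 1 in 20.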

How the results depend on the processing

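The count of SINE families passing between KO and Het stayed at 0 with the other pseudocounts and filters, without the trend, with Het1 or Het2 alone as control, and in each fit that left out 1 library. Scaling changed it. Quantile normalization gave 1 lower family in females (AluF_3) and 5 over both sexes. The replicate block (library number as a block) left 0 SINE families called in every contrast, and raised the count over all families from 36 to 64 over both sexes; the lowest count under any alternative there was 9, with Het1 alone as control. Same-numbered libraries of different groups had a median correlation of 0.45 in their deviations (-0.14 to 0.67, 13 of 15 above 0.1), but only 2 numbers exist, so they share only a number. With the replicate block and scaling together, chosen after seeing the data, median centring gave 2 lower families over both sexes, and quantile normalization gave 1 in males, 3 in females and 7 over both sexes. Over both sexes, 28 of 37 SINE families then had an unadjusted p under 0.05 with median centring and 23 with quantile normalization. The families share their libraries, so these counts are a description. PB1D9 turned to -0.56 in males with quantile normalization and the block. It turned to -0.60, and AluG_3 to -0.44, over both sexes with quantile normalization, with or without the block. The cause was not tested. The difference of IAPEz-int from B1_Mm ranged from 3.08 to 4.05 (log2) and that of L1Md_A from 0.80 to 1.05 when 1 library was left out. Counts for the listed genes between KO and Het over both sexes stayed at 0 under every alternative run. Those for the marks did too, but no SINE family reached 0.5 RPKM in both sexes. At that level their count was fixed at 0, so only the alternative at 0.1 RPKM could have called a SINE family. The comparison with soma over repeats was not run. Histone values rounded to 0.01 RPKM and an unknown depth limit what small differences can show.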
